A study of Mus musculus with 5 samples.

Results

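The genes described here are the nuclear genes of the mitochondrial respiratory chain and of the ATP synthase, read in striatal homogenates of adult mice. Libraries came from a mouse line that carries the Adcy5 R419W allele (KI, n = 2, replicates 1 and 3) and from wild-type littermates (WT, n = 3, replicates 1, 2 and 3). The product of Adcy5 is an adenylyl cyclase that is abundant in striatal neurons and makes cAMP. No treatment is named. Whether KI animals carried 1 or 2 copies of the allele, and their exact age, were not stated. No label ties a library to a single animal, so p-values reflect only how far these libraries scatter, and some of that scatter may be technical.

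Members were chosen by gene name: protein-coding genes whose symbols begin with Nduf, Sdh, Uqcr, Uqcc, Cyc1, Cycs, Cox followed by a digit, Atp5 or Atpaf. GENCODE M21, an annotation of the mouse build GRCm38, holds 113 such symbols. The counted features are laid out in GRCm39 coordinates whereas the reads lie at GRCm38 positions, so each feature was named by the GRCm38 gene whose exons it overlaps. In this way 32 of the 113 genes could be read, out of 8669 named protein-coding genes in all. A further 26 members lay only in features shared with other protein-coding genes, among them Cox4i1, Sdha, Cycs and Atp5b, and 55 had no feature over their exons. All 32 readable members passed the filter on low counts. By complex they were 14 of 44 genes for complex I, 3 of 8 for complex II, 4 of 13 for complex III with cytochrome c, 7 of 29 for complex IV and 4 of 19 for the ATP synthase, also called complex V.

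The respiratory chain moves electrons from NADH and succinate to oxygen and pumps protons across the inner mitochondrial membrane, and the ATP synthase lets them flow back to make ATP. Complex I oxidises NADH, complex II oxidises succinate, complex III passes electrons to cytochrome c, and complex IV reduces oxygen. Except for complex II, these machines combine subunits encoded in the nucleus with subunits encoded in mitochondrial DNA, and separate assembly factors put them together without staying in the finished enzyme. Neurons draw most of their ATP from this pathway. The mitochondrially encoded subunits were not measurable, since the 37 features of the mitochondrial chromosome held 0 counts in all libraries.

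Libraries held 6595105 to 7910584 counts. Levels are given as CPM, counts relative to the library total, scaled by the trimmed mean of M-values (TMM). A gene without counts could still have stood at up to 0.37 to 0.458 CPM, the level of 3 counts, from counting error alone. Every pair of libraries differed beyond sampling noise (chi-square statistic over its degrees of freedom, 6.39 to 19.85). Adcy5 had 0 features over its exons, so the targeted gene could not be read and the genotype labels could not be checked on it. Markers of spiny projection neurons, the main cell type of the striatum, were abundant (5 of 12 read). Their sums were lower in KI: 8568, 11170 and 9961 CPM for WT, against 7205 and 7979 CPM for KI. Penk alone held most of each sum, at 6699, 8248 and 7330 CPM in WT and 5278 and 5883 CPM in KI. Penk and Rgs9 lay below WT in both KI libraries, as did 11.1% of all features, whereas Pde10a, Tac1 and Foxp1 overlapped between the groups. Of these 5 markers 4 had a log2 fold change below 0, among them Rgs9 (-1.03) and Penk (-0.41), and Tac1 was at 0.14. With all libraries 0 of the 5 passed the edgeR test after adjustment, against 0.102% of all features. An unadjusted p under 0.05 was found for 3 of the 5, against 6.39% of all features. Without WT replicate 1, an alternative chosen after seeing the data, 3 of the 5 passed, against 162 of 13221 features. The part of these neurons' share in the members' levels was not tested. The cortical marker Slc17a7 had 73.3, 286 and 209.6 CPM for WT, in replicate order, against 95.8 and 21.97 CPM for KI. The choroid plexus marker Ttr stood at 2086 CPM in KI replicate 3 and at 28.0 to 61.6 CPM in the other libraries.

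Each member was read over part of its exons only, which sets what its level stands for. The covered part ranged from 47 to 5095 exon bases with a median of 381.0, and from 2.46% to 100% of the gene's exon bases with a median of 19.6%. For 5 members (Ndufa4, Ndufa5, Ndufaf4, Ndufaf6 and Sdhaf3) it was more than 99% of the exons. For 5 others it was under 100 bases. Levels below are TMM-scaled CPM in that covered part. Fragments were counted without regard to strand, and a fragment that touched a covered part by a single base was counted.

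No respiratory chain or ATP synthase gene passed the test between KI and WT striatum. Of the 32 members, 0 had an edgeR quasi-likelihood adjusted p under 0.05, against 14 of 13665 features over the whole table (0.102%). The DESeq2 Wald test also called 0 members, against 0.951% of all features, and gave no adjusted p for 1 of them. At an unadjusted p under 0.05 there were 2 members, Cox4i2 and Ndufs3, or about the share of all features (6.39%). The KI libraries lay apart from the WT libraries for 9 members, 3 above and 6 below, where 22.4% of all features were apart (11.3% above and 11.1% below). The median log2 fold change was -0.05 over the members and -0.00 over all features tested. It was above 0 for 10 members and below 0 for 22, where 49.6% of all features were above 0.

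The members' fold changes were small and their intervals narrow. The median absolute log2 fold change was 0.13 for the members and 0.23 for all features tested. For 21 of the 32 members (65.6%) the 95% interval of the difference lay wholly within a 1.5-fold change in either direction, which held for 26.5% of all features. Members at 50 CPM or more had such an interval in 21 of 23 cases, with log2 fold changes from -0.34 to 0.18 and standard errors from 0.11 to 0.19. The 4 members under 10 CPM (Cox4i2, Cox7a1, Atp5c1 and Atp5g1) had standard errors from 0.41 to 0.69, and their intervals all reached beyond 1.5-fold. The level of expression differs between the members (median 96.1 CPM) and all features (median 15.7 CPM), and its part in these 2 contrasts was not tested.

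**Figure D1:**
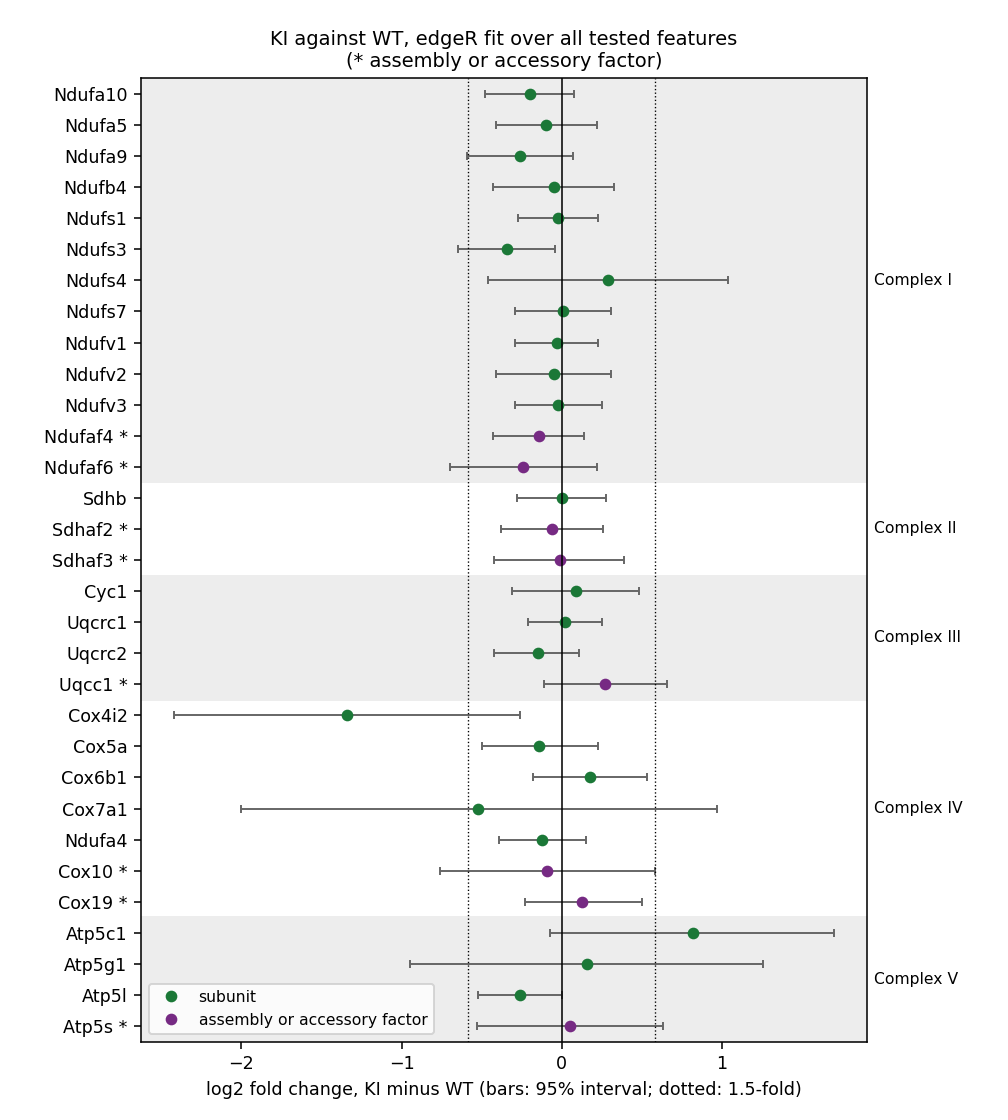
Log2 fold change of each member shown, KI minus WT, with its 95% interval from the edgeR fit, grouped by complex; green points are subunits, purple points assembly or accessory factors, and dotted lines mark a 1.5-fold change. The points lie between -1.34 (Cox4i2) and 0.82 (Atp5c1), and the wide intervals belong to members of low level.

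Complex I was represented by 12 of its 36 nuclear subunits. Of these, 0 passed the edgeR test, 10 had a log2 fold change below 0 and 2 above, and the median was -0.05. The core subunits that carry the flavin and the iron-sulphur clusters of the matrix arm stood close together in KI and WT. Ndufv1, which binds the flavin and NADH, stood at 171, 181 and 173 CPM in WT, against 176.5 and 165.5 CPM in KI. Its log2 fold change was -0.03 (95% interval -0.29 to 0.23), and the groups overlapped. Ndufs1, the largest subunit, stood at 404, 369.9 and 344 CPM in WT, against 386 and 348 CPM in KI, with a log2 fold change of -0.02 (95% interval -0.27 to 0.23). The feature over Ndufs1 also covers the non-coding genes Gm24557 and Ino80dos.

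Ndufs7, another iron-sulphur subunit, had a log2 fold change of 0.01. Ndufv2, an iron-sulphur subunit next to the flavin site, was read over 87 bases and stood at -0.05. Ndufs4, an accessory subunit whose loss causes Leigh-like disease in mice, was read over 74 bases without coding sequence. It held 58 to 116 counts per library, and its log2 fold change of 0.29 had a 95% interval of -0.46 to 1.04. For Ndufs4 the interval was therefore too wide to tell a small change in either direction from none.

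Ndufs3 was the complex I subunit with the smallest p. This core subunit of the matrix arm stood at 90.98, 95.6 and 104 CPM in WT, against 74.1 and 78.2 CPM in KI. Both KI libraries were below all 3 WT libraries. The log2 fold change was -0.34 (SE 0.14, a ratio of 0.79), with an unadjusted p = 0.03125 and an adjusted p = 0.692 in edgeR's quasi-likelihood test. Ndufs3 was read over 261 exon bases on chromosome 2 by a feature that the files label Slc39a13, and 19 of those bases are coding. Without WT replicate 2, WT replicate 3 or either KI library in turn, its unadjusted p was no longer under 0.05.

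Among the accessory subunits of complex I, Ndufa5 and Ndufb4 overlapped between the groups, with log2 fold changes of -0.10 and -0.05. Ndufa5 stood at 276, 229 and 195 CPM in WT, against 213 and 224 CPM in KI, so that WT replicate 1 was the highest and WT replicate 3 the lowest. Ndufa10 had the next smallest p after Ndufs3 and Ndufa9, at 224, 186.5 and 210.5 CPM in WT, against 192 and 167.5 CPM in KI (log2 fold change -0.20, edgeR adjusted p = 0.9151). KI replicate 1 lay within the WT range of Ndufa10. Ndufv3 varied little, between 126.5 and 135.5 CPM in all 5 libraries. The feature over Ndufv3 also covers AC166172.4, AC166575.1 and Gm38099, and that over Ndufs4 also covers Gm47558.

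Both readable assembly factors of complex I were covered over more than 99% of their exons. Ndufaf4, which acts early in assembly, stood at 153, 148 and 133.5 CPM in WT, against 138 and 124 CPM in KI (log2 fold change -0.14, 95% interval -0.43 to 0.14). Ndufaf6 stood at 38.5, 30.5 and 33.9 CPM in WT, against 27.95 and 29.99 CPM in KI. Its KI values were both below the WT values, by a narrow margin (log2 fold change -0.24, edgeR adjusted p = 0.9869).

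Complex II has no mitochondrially encoded subunit, and 1 of its 4 subunits could be read. Sdhb, its iron-sulphur subunit, stood at 300.2, 247 and 250.5 CPM in WT, against 283 and 248 CPM in KI. The mean was 266 CPM in both groups, and the 95% interval of the log2 fold change ran from -0.28 to 0.28. The factors Sdhaf2, which helps to attach the flavin to Sdha, and Sdhaf3, which acts on Sdhb, had log2 fold changes of -0.06 and -0.01. In all 3 genes WT replicate 1 was the highest library, and the groups overlapped.

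For complex III 3 of 10 subunits could be read, with a median log2 fold change of 0.02. Uqcrc1, a core subunit, had the highest CPM of all members at 857, 728 and 738.5 in WT and 817 and 750.0 in KI. Its log2 fold change was 0.02 with the narrowest error of the set (SE 0.11, 95% interval -0.21 to 0.25). Cyc1, the cytochrome c1 subunit that hands electrons to cytochrome c, stood at 104, 66.6 and 88.0 CPM in WT, against 99.1 and 84.4 CPM in KI (log2 fold change 0.09). Both KI libraries of Cyc1 lay inside the WT range.

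Uqcc1, a factor for the assembly of complex III, had the highest log2 fold change among assembly and accessory factors. It stood at 51.0, 44.2 and 40.7 CPM in WT, against 56.4 and 53.2 CPM in KI, both above all WT libraries. The log2 fold change was 0.27 (SE 0.18, 95% interval -0.11 to 0.66, edgeR adjusted p = 0.9172), so the difference did not pass the test. Over the 8 assembly and accessory factors the log2 fold changes had a median of -0.04, with 3 above 0 and 5 below. The 24 subunits had a median of -0.05, with 7 above 0 and 17 below.

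Complex IV held the largest difference of the set, in a subunit of low level. Cox4i2 is the alternative form of subunit 4 of cytochrome c oxidase, known from lung and from mural cells of vessels and linked to low oxygen. It held 53, 109 and 75 counts in WT and 18 and 50 counts in KI, or 6.94, 14.5 and 11.4 CPM against 2.43 and 6.17 CPM. Both KI libraries were below all WT libraries, although KI replicate 3 and WT replicate 1 were close. The log2 fold change was -1.34 (SE 0.50, a ratio of 0.39, 95% interval -2.42 to -0.26), with an unadjusted p = 0.01907 and an adjusted p = 0.5989 in edgeR's quasi-likelihood test. Cox4i2 lies on chromosome 2 from 152754173 to 152765037 and was read over 402 of its 788 exon bases, 240 of them coding.

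Endothelial markers were low in KI replicate 1, in which Cox4i2 was lowest, but so were most other marker sums. That library was also lowest for spiny projection neurons (7205 CPM), oligodendrocytes (1465 CPM) and astrocytes (124 CPM). The same held for microglia (17.15 CPM) and choroid plexus (27.95 CPM), but not for cortical neurons (102 CPM). No marker of mural cells was on the lists. The endothelial genes Tek, Pecam1 and Slco1a4, which were 3 of a list of 6 that could be read, had summed levels of 19.1, 23.1 and 23.5 CPM in the WT libraries, against 8.91 CPM in KI replicate 1 and 19.5 CPM in KI replicate 3. Slco1a4 was at 0 to 0.533 CPM. Without KI replicate 1 the log2 fold change of Cox4i2 was -0.83 and without KI replicate 3 it was -2.16. Its unadjusted p was no longer under 0.05 without WT replicate 2, WT replicate 3 or KI replicate 1. The part of the vascular share in the Cox4i2 values was not tested, and in bulk tissue fewer cells of a type and less RNA per cell cannot be told apart. The common form Cox4i1 shares its feature with other protein-coding genes, so the ratio of both forms was not measurable here.

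The other tissue-type isoform that could be read was Cox7a1, the heart and muscle form of subunit 7a. It stood at 5.24, 2.27 and 4.27 CPM in WT, against 3.38 and 2.10 CPM in KI. The groups overlapped, and its log2 fold change of -0.52 had a 95% interval of -2.0 to 0.97. Cox7a1 held 17 to 40 counts per library, and the width of this interval limits any statement on it.

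The common subunits of complex IV were abundant and close in both groups. Ndufa4, first assigned to complex I and now placed in complex IV, was covered over 1378 of its 1381 exon bases. It stood at 854, 673 and 675.5 CPM in WT, against 719.5 and 630.0 CPM in KI, with a log2 fold change of -0.12 (95% interval -0.39 to 0.15). Cox5a stood at 188, 127 and 135 CPM in WT, against 127 and 146 CPM in KI (log2 fold change -0.14), and WT replicate 1 stood alone above the other 4 libraries. For the factors Cox10, which makes the haem A precursor, and Cox19, a copper-related factor, log2 fold changes were -0.09 and 0.13. Cox10 stood at 26.8 CPM in WT replicate 1 and at 14.7 to 19.0 CPM in the other libraries.

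In the ATP synthase, 3 of 16 subunits could be read, and they had log2 fold changes of either sign. Atp5l, the g subunit of the membrane part, stood at 389.8, 334 and 322 CPM in WT, against 295 and 287 CPM in KI. Both KI libraries were below all WT libraries, with a log2 fold change of -0.26 (SE 0.12, a ratio of 0.84) and an adjusted p = 0.7774 in edgeR's quasi-likelihood test. Its unadjusted edgeR p was 0.05006, and the DESeq2 Wald test put it under 0.05 without calling it after adjustment. The feature over Atp5l also covers Gm30934.

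Atp5c1, the gamma subunit that turns within the catalytic head, stood at 4.58, 6.00 and 6.10 CPM in WT, against 8.37 and 11.2 CPM in KI, both above all WT libraries. Its log2 fold change of 0.82 (SE 0.41, 95% interval -0.07 to 1.70, edgeR adjusted p = 0.8309) was the highest of the members. It rests on 35 to 91 counts per library over 47 bases at the start of the first exon, none of them coding. RefSeq lists 2 start sites there. The covered bases are the first 47 of the transcript from the outer one and lie 32 to 78 bases before the inner one. Fragments from transcripts that begin at the inner site do not reach them, so this level is not that of the whole gene. Atp5g1, a gene for subunit c of the rotor ring, stood at 3.66 to 6.26 CPM over a part without coding sequence and overlapped between the groups. Its mature protein is shared with its paralogs, but the sequence that encodes this protein was not read here. Whether similar sequence elsewhere affects these counts was not tested. Atp5s, the coupling factor B gene, had a log2 fold change of 0.05.

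**Figure D2:**
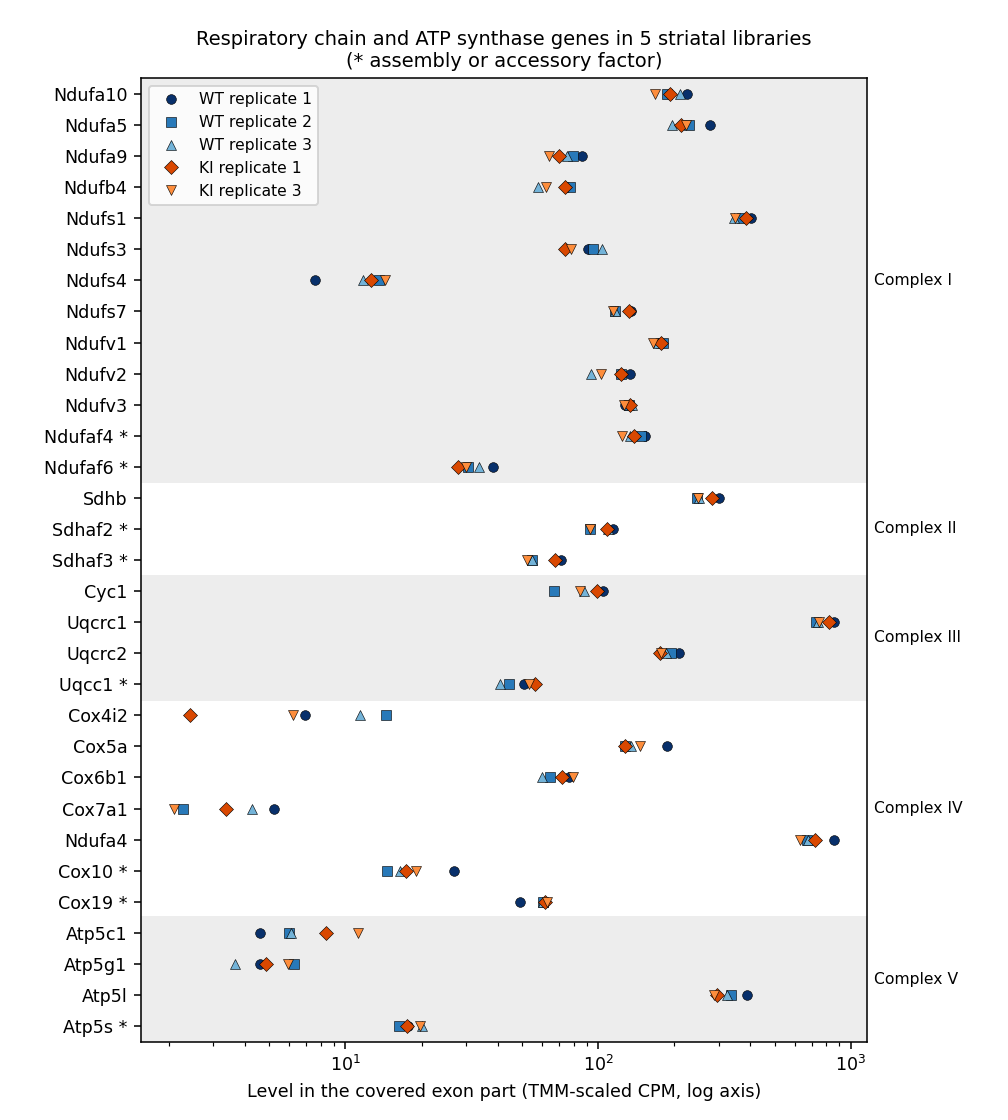
TMM-scaled CPM of each member shown in its covered exon part on a log axis, with 1 point per library (WT in blue, KI in orange) and members grouped by complex. WT replicate 1 is the rightmost point for most members shown. Both KI points of Cox4i2 lie to the left of its WT points and those of Atp5c1 to the right.

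Several genes were read by more than 1 feature, which gives a check of how much the covered part matters. In all, 7 members had 9 further features. The exon stretches of the coding windows of Uqcrc2, a core subunit of complex III, of Cox6b1, a subunit of complex IV, and of Cox5a are shown because they are the letters through which these genes were read. Capitals mark the covered bases and lower case the neighbouring transcript bases, from GENCODE M21 (GRCm38), 5′ to 3′ in the sense of the transcript.
Uqcrc2, chr7:120640234-120641735, plus strand, 122 bases joined from 2 exons: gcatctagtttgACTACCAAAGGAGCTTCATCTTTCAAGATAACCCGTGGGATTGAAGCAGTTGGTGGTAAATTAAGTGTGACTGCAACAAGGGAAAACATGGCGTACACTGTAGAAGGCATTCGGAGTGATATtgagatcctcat
Uqcrc2, chr7:120651310-120651384, plus strand, 75 bases: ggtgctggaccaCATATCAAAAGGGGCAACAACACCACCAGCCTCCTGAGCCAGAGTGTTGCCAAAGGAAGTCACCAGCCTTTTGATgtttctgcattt
Uqcrc2, chr7:120653981-120654061, plus strand, 81 bases: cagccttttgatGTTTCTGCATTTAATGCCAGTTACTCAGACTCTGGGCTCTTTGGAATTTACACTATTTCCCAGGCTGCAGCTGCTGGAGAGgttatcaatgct
Cox6b1, chr7:30623471-30623515, minus strand, 45 bases: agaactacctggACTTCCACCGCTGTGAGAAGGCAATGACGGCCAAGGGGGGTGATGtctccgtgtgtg
Cox5a, chr9:57521361-57521415, plus strand, 55 bases: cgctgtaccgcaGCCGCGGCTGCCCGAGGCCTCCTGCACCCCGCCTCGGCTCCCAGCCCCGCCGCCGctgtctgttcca

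The windows of Uqcrc2 gave similar but not equal answers. Over the 122-base window it stood at 209, 194 and 186 CPM in WT, against 175.0 and 178 CPM in KI, with both KI libraries below WT (log2 fold change -0.15). Over the 81-base window it stood at 152, 141 and 130 CPM in WT, against 141 and 144 CPM in KI, and the groups overlapped (log2 fold change 0.01). The 75-base window gave -0.06, and its feature also covers 4930588G17Rik, 9030407P20Rik and Gm45112. The 2 shorter windows lie in neighbouring exons of the transcript, so a fragment that spans both is counted in each.

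For Cox6b1 the part with the larger overlap was a 59-base stretch of the first exon without coding sequence. It stood at 60.1 to 79.6 CPM with a log2 fold change of 0.18. This stretch runs from 37 bases before to 21 bases after the RefSeq start site. Transcripts that begin at that site do not reach the bases before it. The same stretch stands for Cox6b1 in the counts and sums over members. The 45-base coding window printed above stood higher, at 641, 477 and 501 CPM in WT, against 548 and 492 CPM in KI, with a log2 fold change of -0.05 (95% interval -0.34 to 0.23). Ndufa9, a complex I subunit, went furthest apart between windows. Its 239-base stretch without coding sequence stood at 86, 79.3 and 75.5 CPM in WT, against 70.2 and 63.9 CPM in KI (log2 fold change -0.26), with KI below WT. Its 183-base stretch stood at 154.5, 125.5 and 110 CPM in WT, against 152 and 131 CPM in KI (log2 fold change 0.12). Of all these windows, 0 passed the edgeR test after adjustment, and the intervals of windows of the same gene overlapped in each of the 7 genes. Windows of the same gene can share fragments, so they are not independent readings and the overlap of their intervals decides little. The 36-base window of Atp5l lies within the span of its 2950-base part, and both gave a log2 fold change of -0.26.

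**Figure D3:**
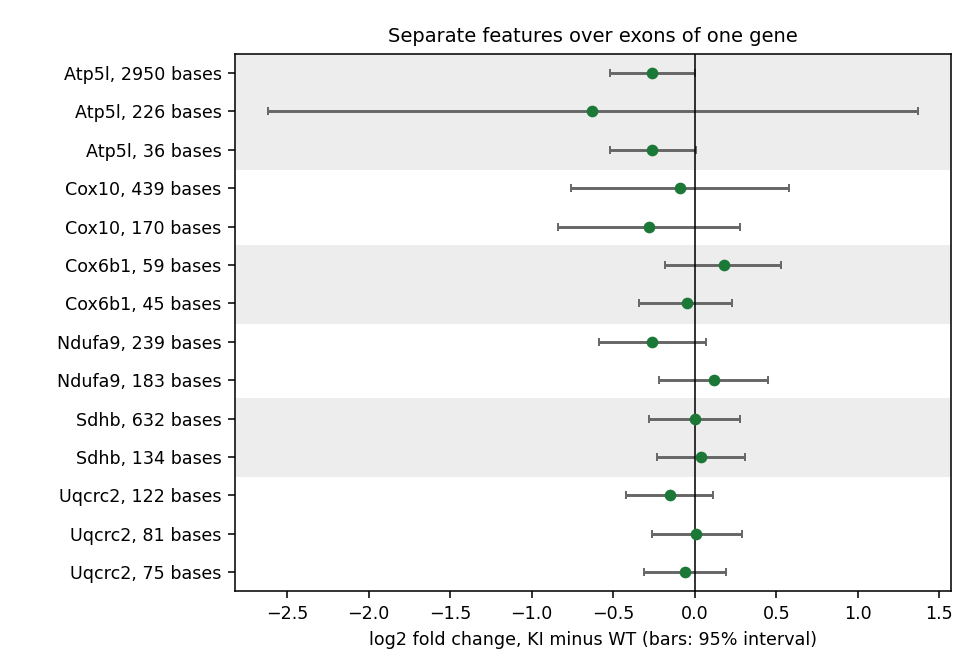
Log2 fold change, KI minus WT, with 95% intervals, for members read by more than 1 feature, labelled by the number of covered exon bases. Windows of Cox6b1, Ndufa9 and Uqcrc2 fall on both sides of 0, and the 226-base window of Atp5l has the widest interval.

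The members' levels differed between libraries within a group. WT replicate 1 had the highest CPM of the 5 libraries for 20 of 32 members (62.5%), whereas it was highest for 22.6% of all features tested and for 25.6% of named protein-coding genes at 10 CPM or more. KI replicate 3 was lowest for 11 members (34.4%, against 19.9% of all features). The summed CPM of the 24 subunits was 5028, 4307 and 4266 for WT, against 4449 and 4131 for KI, each in replicate order. The sum for the 8 assembly and accessory factors was 521, 462 and 469 in WT and 495 and 454 in KI. In both sums KI replicate 1 was the second highest, and the groups overlapped.

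WT replicate 1 also differed from WT replicates 2 and 3 in cell type markers. Its cortical marker sum (Slc17a7 and Neurod2, 2 of 6 markers read) was 74.9 CPM against 318 and 240 CPM, and 102 and 23.7 CPM in the KI libraries. Its oligodendrocyte sum (4 of 7 markers read) was 2064 CPM against 1557 and 1590 CPM, and 1465 and 1517 CPM in KI. All the other marker sums were lowest in WT replicate 1 among the WT libraries. They were 8568 CPM against 11170 and 9961 CPM for spiny projection neurons, and 133 against 144.5 and 157 CPM for astrocytes. For microglia they were 21.3 against 26.8 and 28.5 CPM, for endothelial cells 19.1 against 23.1 and 23.5 CPM, and for choroid plexus 42.3 against 55.3 and 61.6 CPM. The part of these shares in the members' levels was not tested. Without WT replicate 1 the median log2 fold change of the members was 0.04, with 20 of 32 above 0, in place of -0.05 with 10 of 32 above 0. Without KI replicate 3 the median was 0.01, with 17 of 32 above 0, and with unscaled library totals it was 0.00, also with 17 of 32 above 0. The sign of the median thus depended on either of these libraries and on the scaling.

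**Figure D4:**
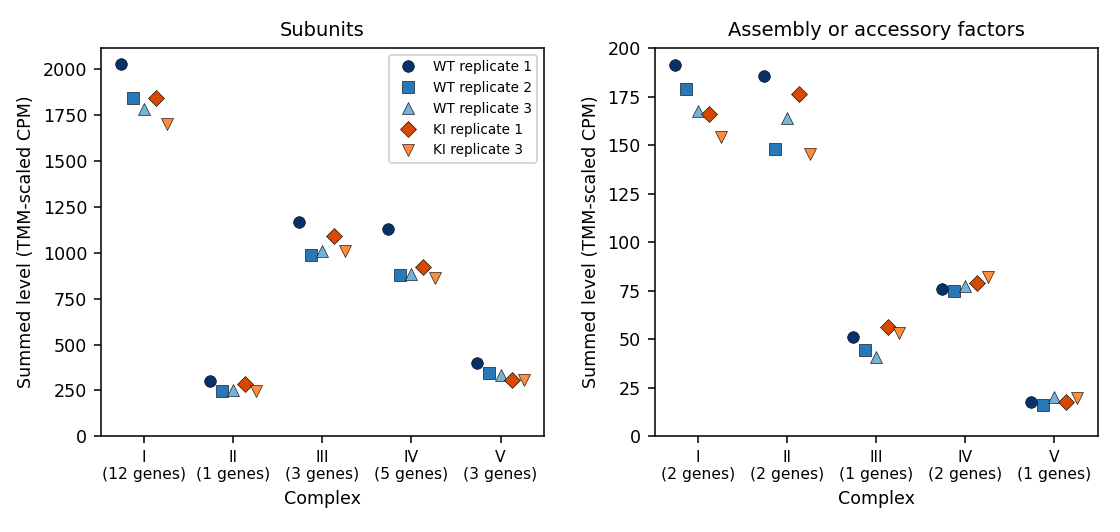
Summed TMM-scaled CPM of the readable members of each complex, subunits on the left and assembly or accessory factors on the right, with 1 point per library. WT replicate 1 is highest in each sum of subunits, at 2028 CPM for complex I, and the groups lie apart for the ATP synthase subunits, a sum that is nearly all Atp5l (KI 308 and 305 CPM, below WT at 332 to 399 CPM), and for the factors of complex I (KI below WT) and of complexes III and IV (KI above WT).

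Levels of different genes can be compared only per length, and short covered parts inflate such a level because a fragment needs to touch them by 1 base. Among the 11 members covered over at least 1000 exon bases, the 6 subunits all stood above the 5 assembly factors. The level per kilobase of covered exon was 552 ± 39.8 CPM for Uqcrc1 and 515 ± 62.6 CPM for Ndufa4 (SD over all 5 libraries), whose ranges overlapped. It was 221 ± 29.3 for Ndufa5, 172 ± 11.8 for Ndufs1, 110 ± 13.8 for Atp5l and 56.6 ± 1.65 for Ndufv3, all apart from their neighbours in this order. The assembly factors followed with Sdhaf2 at 39.8 ± 3.78 and Ndufaf4 at 35.7 ± 2.93, whose ranges overlapped. Ndufaf6 at 26.0 ± 3.34, Uqcc1 at 18.7 ± 2.47 and Sdhaf3 at 11.8 ± 1.70 CPM per kilobase were each apart from the next. The covered bases pool exons of all listed transcripts, and bases outside the transcripts present lower such a level. The coding part was 375 of 5095 bases for Sdhaf3, 106 of 2607 for Sdhaf2, 277 of 2625 for Uqcc1 and 581 of 3902 for Ndufaf4. It was 999 of 1235 for the factor Ndufaf6, and 719 of 1410 and 208 of 2950 for the subunits Uqcrc1 and Atp5l. The part of these differences in the order was not tested. The length minimum was chosen after the values were seen, and the order did not hold among members with shorter covered parts. There the subunits Cox4i2 and Atp5g1 stood at 20.65 and 16.69 CPM per kilobase, below the factors Cox10 (42.94) and Cox19 (145.3).

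**Figure D5:**
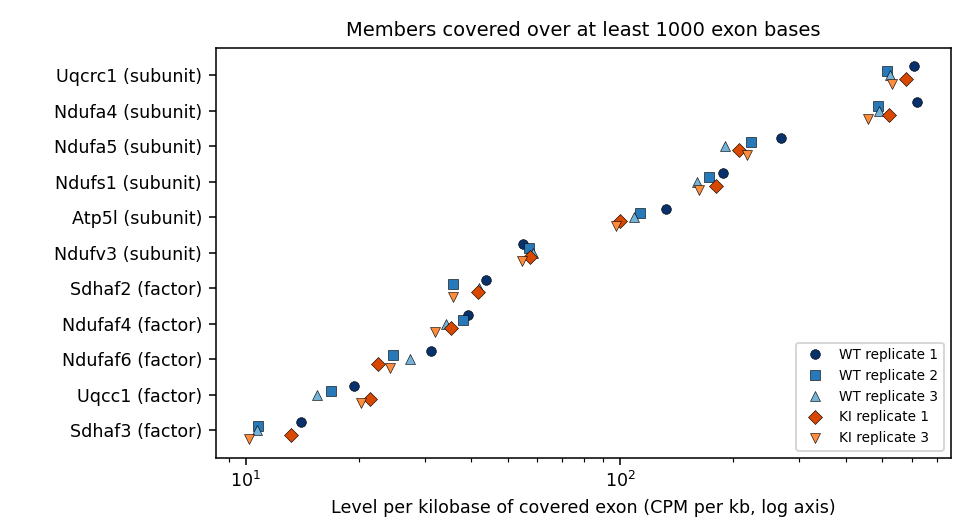
Level per kilobase of covered exon (CPM per kb, log axis) of the 11 members covered over at least 1000 exon bases, with 1 point per library. The 6 subunits lie above the 5 assembly factors in every library, from Uqcrc1 (552 on average) to Sdhaf3 (11.8).

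Promoter sequence was not used in the choice by name. RefSeq promoters of GRCm38.p6 (250 bases before to 50 after the start site) were found for 25 of the 32 readable members and for 91 of all members. The letters GCGCA, any 1 base and GCGC in a row, a core of sites for the transcription factor NRF1, which is known to act on respiratory genes, were present on either strand for 6 of the 25 (24%) and for 24.2% of the 91, against 7.17% of 17492 protein-coding genes. The ETS-type letters CCGGAAG, which nuclear respiratory factor 2 can bind, were present for 28.0% of the 25, 28.6% of the 91 and 12.9% of protein-coding genes. The YY1-type letters AAGATGGC were present for 16.0%, 15.4% and 3.57%. The letters TCAAGGTCA, read by oestrogen-related receptors, were present for 0 of the 25, 2 of the 91 and 0.377% of protein-coding genes. The ETS-type and YY1-type letters can share bases where they meet end to end. These matches describe letters and show no binding.

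As examples, 5 of the matches that lie before a start site are shown in 30 bases, from the sense strand of the gene, with the motif in capitals. These examples belong to a complex I assembly factor, to 2 complex I accessory subunits, to Ndufs3, whose values lay below WT in both KI libraries, and to Cox10.
Ndufaf4, NRF1 letters, chr4:24897960-24897989, plus strand: ccagatgtctGCGCATGCGCctgtgcggaa
Ndufb4, NRF1 letters, chr16:37654428-37654457, minus strand: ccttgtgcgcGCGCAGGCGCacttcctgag
Ndufa5, NRF1 letters, chr6:24527697-24527726, minus strand: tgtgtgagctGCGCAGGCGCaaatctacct
Ndufs3, ETS-type letters, chr2:90904730-90904759, minus strand: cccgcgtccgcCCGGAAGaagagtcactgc
Cox10, ETS-type letters, chr11:64079481-64079510, minus strand: agcgctgggagCCGGAAGtgacaagaggaa
The match in Ndufaf4 begins 113 bases before the start site, that in Ndufb4 79 bases, that in Ndufa5 26 bases before one of its 2 listed start sites, and those in Ndufs3 and Cox10 27 bases before it. The genes with NRF1 letters had log2 fold changes on both sides of 0, from -0.14 for Ndufaf4 to 0.82 for Atp5c1.

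Among regulators of mitochondrial gene expression 9 of 19 genes could be tested, with 5 above 0 and 4 below. Of these, 0 passed the edgeR test after adjustment and 2 had an unadjusted p under 0.05, as did 6.39% of all features. Both of these genes had KI libraries apart from WT, as did 22.4% of all features, a share not limited to features of small p. Esrra, the oestrogen-related receptor alpha that activates respiratory genes, stood at 41.4, 43.8 and 53.5 CPM in WT, against 28.6 and 30.5 CPM in KI. Both KI libraries were below all WT libraries (log2 fold change -0.64, SE 0.20, edgeR adjusted p = 0.427). Polg, the mitochondrial DNA polymerase, stood at 19.5, 20.7 and 19.7 CPM in WT, against 30.2 and 26.4 CPM in KI (log2 fold change 0.51, edgeR adjusted p = 0.7774).

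The enzymes that feed the chain were close in both groups. Of 22 genes of the tricarboxylic acid cycle and pyruvate dehydrogenase 11 were tested, 0 passed, 5 were above 0 and 6 below, and the median log2 fold change was -0.04. Pdhb, a pyruvate dehydrogenase subunit, and Dlst, of the oxoglutarate dehydrogenase complex, had the smallest p of that list, with log2 fold changes of -0.23 and 0.19. Coenzyme Q synthesis genes had a median of 0.11 over 5 of 13 genes, with Coq10b at -0.66 (SE 0.63) and Coq8b at 0.22 (SE 0.23). Further assembly factors outside the name rule had 4 of 22 genes tested for complexes III and IV, with a median of 0.06. Among them Coa7 was at -0.64 (SE 0.49) and Tmem177 at 0.29 (SE 0.67). For complex I 1 of 10 was tested, Acad9 at 0.23 (SE 0.25). Coq10b, Coa7 and Tmem177 were of low level, with group means from 2.81 to 6.74 CPM. Of 19 carriers and anion channels 2 were tested, Slc25a13 at 0.14 and Letm1 at -0.04. In these 4 lists too, 0 genes had an edgeR adjusted p or an unadjusted p under 0.05.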

How the data were processed

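The authors deposited raw counts of fragments per gene feature for each library, made with featureCounts 2.0.1 on the Ensembl 103 annotation of GRCm39, with fragments counted, strand ignored and a fragment given to each feature it overlapped, per the file headers. The library kit was a stranded Illumina mRNA ligation kit, per the labels' protocols. Neither the aligner nor its genome build was stated in the material used. Of 53700 features, 16422 (57.63% of the counts) were named by GENCODE M21 exons with bedtools 2.31.1: the only gene there, or the only protein-coding one. A gene with several features was represented by the largest overlap.

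Features were filtered with filterByExpr, scaled by TMM and compared, KI against WT over 5 libraries, in edgeR 4.0.16 (R 4.3.3) by its quasi-likelihood test. Adjusted p-values are Benjamini-Hochberg over all 13665 tested features, with a threshold of 0.05. Standard errors and 95% intervals come from the F statistic. Alternatives were other scalings, DESeq2 1.42.0, no filter, the replicate block, each library left out and other choices of feature. Members are the 113 genes the name rule finds. Those described were taken by smallest p, highest level per kilobase, isoform pairs, separation of groups and fold change per complex, and others were named after their values were seen. The members, lists and rules were chosen with earlier results of these data known. The values of 1 readable member are not reported here, and the counts over members include it.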

Additional observations from a re-analysis of the deposited data

How the results depend on the processing

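Under all 12 alternatives 0 members passed the threshold, and the members' median log2 fold change stayed between -0.10 and 0.04. Against 14 features called over the whole table, the DESeq2 Wald test called 130, no low-count filter 183, the replicate block 153, and leaving out 1 library 2 to 162, the most without WT replicate 1. The cause was not tested. The replicate numbers were not taken as pairs in the main fit, and WT replicate 2 has no partner. Deviations of same-numbered libraries correlated at 0.111 and 0.07, and those of other KI and WT libraries at -0.111 to 0.054. With 2 KI libraries their deviations mirror each other, so these values cannot decide whether the numbers are pairs. Of 300 values for 25 named members, 271 kept their sign and side of the threshold and 29 changed sign. With unscaled totals Ndufv2 was at 0.00, Sdhaf3 at 0.04 and Sdhb at 0.05, and without a filter Sdhb was at 0.00. With the replicate block Atp5s was at -0.02, Cyc1 at -0.07, Ndufv2 at 0.01 and Uqcrc1 at -0.02. With the feature of highest CPM Cox6b1 was at -0.05 and Ndufa9 at 0.12. Leaving out 1 library gave ranges that cross 0: Cox10 -0.25 to 0.23, Cox5a -0.24 to 0.07, Ndufa4 -0.22 to 0.01, Ndufv2 -0.19 to 0.08, Sdhaf2 -0.18 to 0.05, Sdhaf3 -0.21 to 0.16, Sdhb -0.10 to 0.10, Atp5s -0.04 to 0.14, Cyc1 -0.06 to 0.25, Uqcrc1 -0.05 to 0.10, Atp5g1 -0.00 to 0.39. Without a KI library the fit takes the spread from WT alone. Members read by under 120 counts per library (Ndufs4, Cox4i2, Cox7a1, Atp5c1 and Atp5g1) had standard errors from 0.35 to 0.69. The part of depth in these was not tested.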

Other observations

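Of 16 glycolysis genes 7 were tested, 6 had a log2 fold change below 0, and 0 passed the edgeR test after adjustment, while 2 had an unadjusted p under 0.05. Over all features 49.6% were above 0 and 6.39% had an unadjusted p under 0.05. The summed CPM of the list overlapped between the groups, at 2385, 2070 and 2097 for WT, against 2235 and 1956 for KI. With 1 library left out, an alternative chosen after seeing the data, the balance of signs turned: 2 of 7 were below 0 without WT replicate 1 and 3 of 7 without KI replicate 3. Pfkp, the platelet form of phosphofructokinase, stood at 125, 102 and 111 CPM in WT, against 85.3 and 72.2 CPM in KI, a log2 fold change of -0.52 (SE 0.15) with an edgeR adjusted p = 0.3346. Eno1, an enolase gene with near-identical copies that make its counts uncertain, stood at 13.2, 19.3 and 15.4 CPM in WT, against 6.21 and 7.41 CPM in KI, a log2 fold change of -1.23 (SE 0.34) with an edgeR adjusted p = 0.2897. In both genes, taken by smallest p, the KI libraries lay below all WT libraries, as in 11.1% of all features whatever their p.

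Genes of the mitochondrial ribosome, which makes the mitochondrially encoded subunits, had 11 of 14 tested members below 0 and 3 above, with a median log2 fold change of -0.14, where 49.6% of all features were above 0. Of the 14, 0 passed the edgeR test after adjustment and 1 had an unadjusted p under 0.05, as did 6.39% of all features. Without WT replicate 1, whose sum was the highest, 8 of the 14 were above 0 and the median was 0.03. Mrps33 stood at 102.9, 109 and 97.2 CPM in WT, against 77.1 and 85.7 CPM in KI (log2 fold change -0.34, edgeR adjusted p = 0.6932). Mrpl50 had a log2 fold change of -0.16. Summed CPM over the 15 readable genes was 669, 626 and 609 for WT, against 598 and 559 for KI, so both KI sums lay below WT.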
